A study of Homo sapiens with 13 samples.

Results

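The genes examined here are 41 human genes of DNA replication and origin licensing, out of 19970 protein-coding genes on chromosomes 1 to 22 and X. They were chosen by name and role, by a rule that uses no measured value. S9.6 is an antibody that binds DNA-RNA hybrids, and DRIP-seq sequences the sonicated genomic DNA that it pulls down. The cells were U2OS, a human osteosarcoma line. All groups share this line and the stated culture medium, and they differ in the siRNA they received. The siCtrl cells had a control siRNA and are labelled wild type, the siREXO4 cells an siRNA against REXO4, a member of a predicted exonuclease family, and the siRNaseH1 cells an siRNA against RNaseH1, which degrades the RNA strand of hybrids. No siRNA sequence, dose or time is named in the sources used here. Peaks measure neither RNA nor protein, so the files check neither the knockdowns nor the identity of the cells. The 13 samples are 3 S9.6 libraries and 1 input for each transfection, and 1 IgG control made from siCtrl cells. The authors merged the 3 S9.6 libraries before calling peaks, so each transfection is 1 list, no value has a replicate error and no test between transfections was possible.

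Eukaryotic replication origins are licensed when the origin recognition complex (ORC), CDC6 and CDT1 load a double ring of the MCM2 to MCM7 helicase onto DNA. MCM10, CDC45 and GINS then turn the loaded ring into a working helicase, and polymerases alpha, delta and epsilon copy the strands with the PCNA clamp, its RFC loader, the RPA single-strand binding complex and the flap nuclease and ligase that join Okazaki fragments. Many of these genes are transcribed under E2F factors as cells enter S phase, and hybrids form most readily at transcribed genes, often near their starts.

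A gene was counted as holding a peak when the peak overlapped its RefSeq span or the 2 kb on either side by at least 1 bp. A knockdown peak that no siCtrl peak overlapped is called gained. Fold means the authors' enrichment at a summit over the local background, and it describes a peak within its own list, where rank 1 is the highest fold. Folds of different lists set side by side are therefore no measure of change. Coordinates are hg38. The gene table gives no exons, so exons, introns and UTRs were not told apart.

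Before the counts, the promoters of the 6 genes whose start peak ranked best, as a percentage of its list, are shown, because the highest fold of either knockdown list at these genes lay at a start, that of CDC6. MCM6, which held no peak in any list, is set beside them as a gene chosen after its values were seen. Each run covers 250 bases before the annotated start and 50 bases from it, 5′ to 3′ on the gene's own strand, from RefSeq on GRCh38.p14. Capitals mark letters that match an E2F-type element, searched on both strands as TTTCGCGC, TTTGGCGC or TTTCCCGC, with overlapping matches counted separately.
CDC6, chr17:40287629-40287928, plus strand: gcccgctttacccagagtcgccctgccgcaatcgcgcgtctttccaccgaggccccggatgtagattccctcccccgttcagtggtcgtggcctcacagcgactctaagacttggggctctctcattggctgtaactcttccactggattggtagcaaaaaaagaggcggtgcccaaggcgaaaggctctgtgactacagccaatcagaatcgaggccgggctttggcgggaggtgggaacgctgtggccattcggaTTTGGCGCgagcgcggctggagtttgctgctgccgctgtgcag
MCM7, inner start, chr7:100100480-100100779, minus strand: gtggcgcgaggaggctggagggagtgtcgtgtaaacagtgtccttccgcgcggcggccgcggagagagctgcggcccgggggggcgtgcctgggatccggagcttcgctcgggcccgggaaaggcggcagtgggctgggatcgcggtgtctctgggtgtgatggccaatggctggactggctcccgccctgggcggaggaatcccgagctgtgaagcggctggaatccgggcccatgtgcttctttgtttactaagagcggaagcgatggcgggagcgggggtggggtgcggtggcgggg
MCM7, outermost start, chr7:100101348-100101647, minus strand: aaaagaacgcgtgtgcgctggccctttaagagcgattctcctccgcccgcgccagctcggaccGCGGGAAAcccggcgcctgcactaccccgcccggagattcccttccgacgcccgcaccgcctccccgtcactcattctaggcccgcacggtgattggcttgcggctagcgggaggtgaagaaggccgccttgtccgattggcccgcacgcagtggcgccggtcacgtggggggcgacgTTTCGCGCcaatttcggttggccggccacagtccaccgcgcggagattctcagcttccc
RFC3, chr13:33817899-33818198, plus strand: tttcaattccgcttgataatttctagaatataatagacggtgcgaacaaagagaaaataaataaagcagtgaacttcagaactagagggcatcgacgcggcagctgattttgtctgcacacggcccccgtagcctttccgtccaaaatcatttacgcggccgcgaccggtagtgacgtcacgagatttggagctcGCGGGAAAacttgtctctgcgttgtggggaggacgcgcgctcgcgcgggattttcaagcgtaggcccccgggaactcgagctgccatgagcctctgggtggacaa
POLD1, chr19:50384073-50384372, plus strand: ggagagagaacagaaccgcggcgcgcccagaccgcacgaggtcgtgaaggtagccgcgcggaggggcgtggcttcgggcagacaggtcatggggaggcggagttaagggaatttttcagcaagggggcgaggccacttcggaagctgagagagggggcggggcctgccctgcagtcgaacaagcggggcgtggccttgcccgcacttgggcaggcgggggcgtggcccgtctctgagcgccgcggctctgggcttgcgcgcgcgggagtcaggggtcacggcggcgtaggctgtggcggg
RFC2, chr7:74254350-74254649, minus strand: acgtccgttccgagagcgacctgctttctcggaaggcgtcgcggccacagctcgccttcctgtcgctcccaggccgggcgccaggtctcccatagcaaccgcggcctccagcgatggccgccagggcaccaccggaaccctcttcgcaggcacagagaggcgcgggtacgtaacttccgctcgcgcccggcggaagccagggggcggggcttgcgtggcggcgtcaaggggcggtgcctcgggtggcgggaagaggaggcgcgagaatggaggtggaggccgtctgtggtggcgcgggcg
RFC5, chr12:118016453-118016752, plus strand: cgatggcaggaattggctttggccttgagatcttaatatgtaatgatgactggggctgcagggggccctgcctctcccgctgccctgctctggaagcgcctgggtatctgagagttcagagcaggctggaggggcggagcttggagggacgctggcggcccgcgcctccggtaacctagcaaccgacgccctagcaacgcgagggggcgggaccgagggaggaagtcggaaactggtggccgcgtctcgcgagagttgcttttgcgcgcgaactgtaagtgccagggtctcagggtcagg
MCM6, chr2:135876394-135876693, minus strand: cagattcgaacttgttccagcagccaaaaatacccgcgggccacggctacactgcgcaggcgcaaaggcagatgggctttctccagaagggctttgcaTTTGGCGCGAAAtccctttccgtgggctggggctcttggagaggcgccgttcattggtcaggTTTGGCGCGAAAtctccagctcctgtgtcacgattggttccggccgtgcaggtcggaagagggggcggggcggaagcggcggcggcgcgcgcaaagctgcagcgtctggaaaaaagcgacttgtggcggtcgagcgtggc

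In the CDC6 promoter 1 match begins at base 8 of the transcript. In RFC3 1 match begins at position -55, counted back from the start, and the outermost MCM7 start has matches at -187 and -9. The inner MCM7 start, POLD1, RFC2 and RFC5 held no match in these 300 bases. The MCM6 promoter held 4 matches, at -152, -148, -90 and -86, which overlap as pairs in 2 stretches. Promoter sequences were found for 34 of the 41 genes, and 18 of these 34 (52.9%) held a match, against 4.53% of 15811 protein-coding genes. Of the 20 replication genes with a peak at a start in any list, 8 held a match, and of the 14 without such a peak, 10 did (40.0% and 71.4%). Over all protein-coding genes the order was the other way, with a match in 6.37% of those with a start peak and 3.88% of those without. A CCAAT element was found in 61.8% of the 34 genes and in 42.1% of all genes, and a GGGCGG element in 76.5% and 64.3%, both strands searched. The median GC content was 65.3% over the replication promoters and 62.3% over all promoters. The median GC skew of the gene's strand, (G − C) / (G + C), was 0.09 and 0.02. It was 0.102 over replication promoters of genes with a start peak and 0.047 over those without. Over all protein-coding genes this skew split was 0.028 and 0.017. The same split of median GC content was 63.7% and 66.0% over replication promoters, and 66.0% and 60.3% over all genes, the other way. Among the printed promoters the skew ran from 0.033 in CDC6 and 0.069 in RFC3 to 0.277 in POLD1 and 0.321 at the inner MCM7 start, while the outermost MCM7 start had -0.094. These are descriptions of sequence, and a match is not a bound site.

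Hybrid peaks were found at 9 of the 41 genes in siCtrl, 22 in siREXO4 and 29 in siRNaseH1. Among all protein-coding genes the same window held a peak at 12.0%, 33.7% and 39.2%. The replication genes thus held peaks more often than the background in all 3 lists, siCtrl included, with 53.7% of them in siREXO4 and 70.7% in siRNaseH1. A gained peak was found at 21 genes in siREXO4 and 28 in siRNaseH1, with 31.3% and 37.6% of all protein-coding genes as background. A siREXO4 gained peak that a siRNaseH1 gained peak overlapped was found at 15 genes, against 20.7% of all genes. Both knockdowns were set against the same siCtrl list, so this last count does not come from independent comparisons. A siCtrl peak found in neither knockdown lay at 5 genes (ORC1, ORC3, RPA2, MCM10 and GINS3), against 5.34%. The lists differ in length, and with each held to the 4458 peaks that its p-values rank best, 12 genes held a siREXO4 peak and 15 a siRNaseH1 peak, against 18.6% and 16.9% of all genes. Gained loci then lay at 9 and 13 genes, against 15.6% and 14.2%, and loci gained in both at 5, against 8.96%. At a −log10 q of at least 3, siCtrl peaks lay at 5 genes (12.2%), near the 9.48% of all genes.

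**Figure D1:**
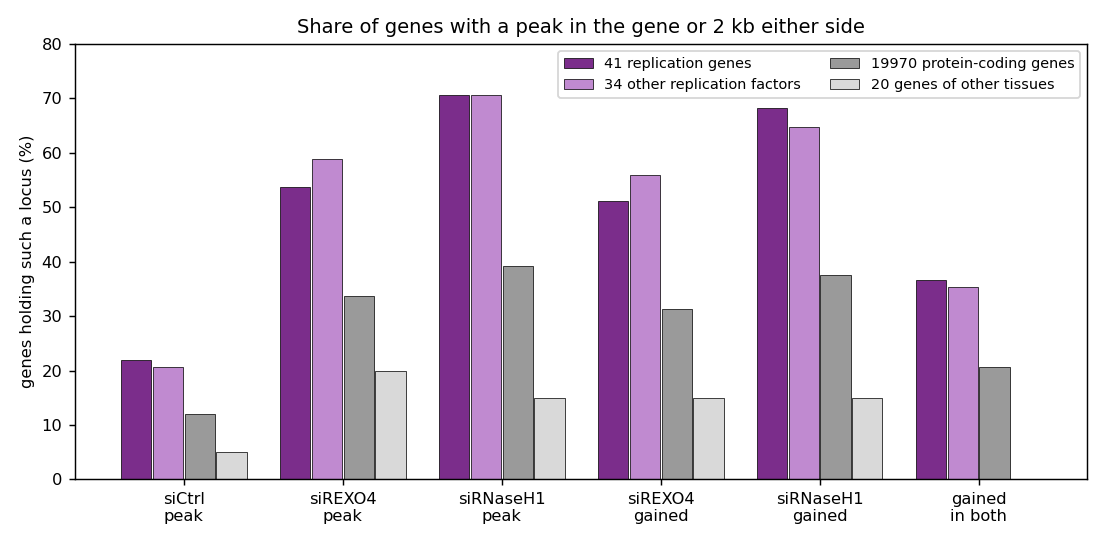
Bars give the percentage of genes in each set that hold a locus of the kind named on the x axis, in the gene or 2 kb either side, with 1 merged list per transfection and no error bar. The replication genes and the 34 other replication factors lie above the protein-coding genes in every column, and the 20 genes of other tissues lie below them. The genes of other tissues are also shorter, with a median span of 8.37 kb against 24.2 kb over all protein-coding genes.

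By pattern, 6 genes held a peak in all 3 lists: ORC1, ORC3, ORC4, CDC6, MCM7 and RPA2. All 3 lists held a peak at 8.59% of protein-coding genes. A further 14 had peaks in both knockdown lists and none in siCtrl, namely ORC2, ORC5, CDT1, MCM4, MCM5, CDC45, POLD1, PCNA, RFC1, RFC2, RFC3, RFC5, FEN1 and LIG1. ORC6, GMNN, MCM2, MCM3, POLA2, PRIM1 and POLD3 had peaks in siRNaseH1 alone, POLE and RPA1 in siREXO4 alone, and GINS3 in siCtrl alone. MCM10 and RFC4 had peaks in siCtrl and siRNaseH1. For the patterns between all 3 lists and none, the share of all protein-coding genes was not counted. Because the lists differ in length, these patterns name the genes and do not set them apart from other genes. The remaining 9 genes, MCM6, GINS1, GINS2, GINS4, POLA1, POLD2, POLE2, RPA3 and DNA2, had none, against 53.3% of protein-coding genes without a peak in any list.

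**Figure D2:**
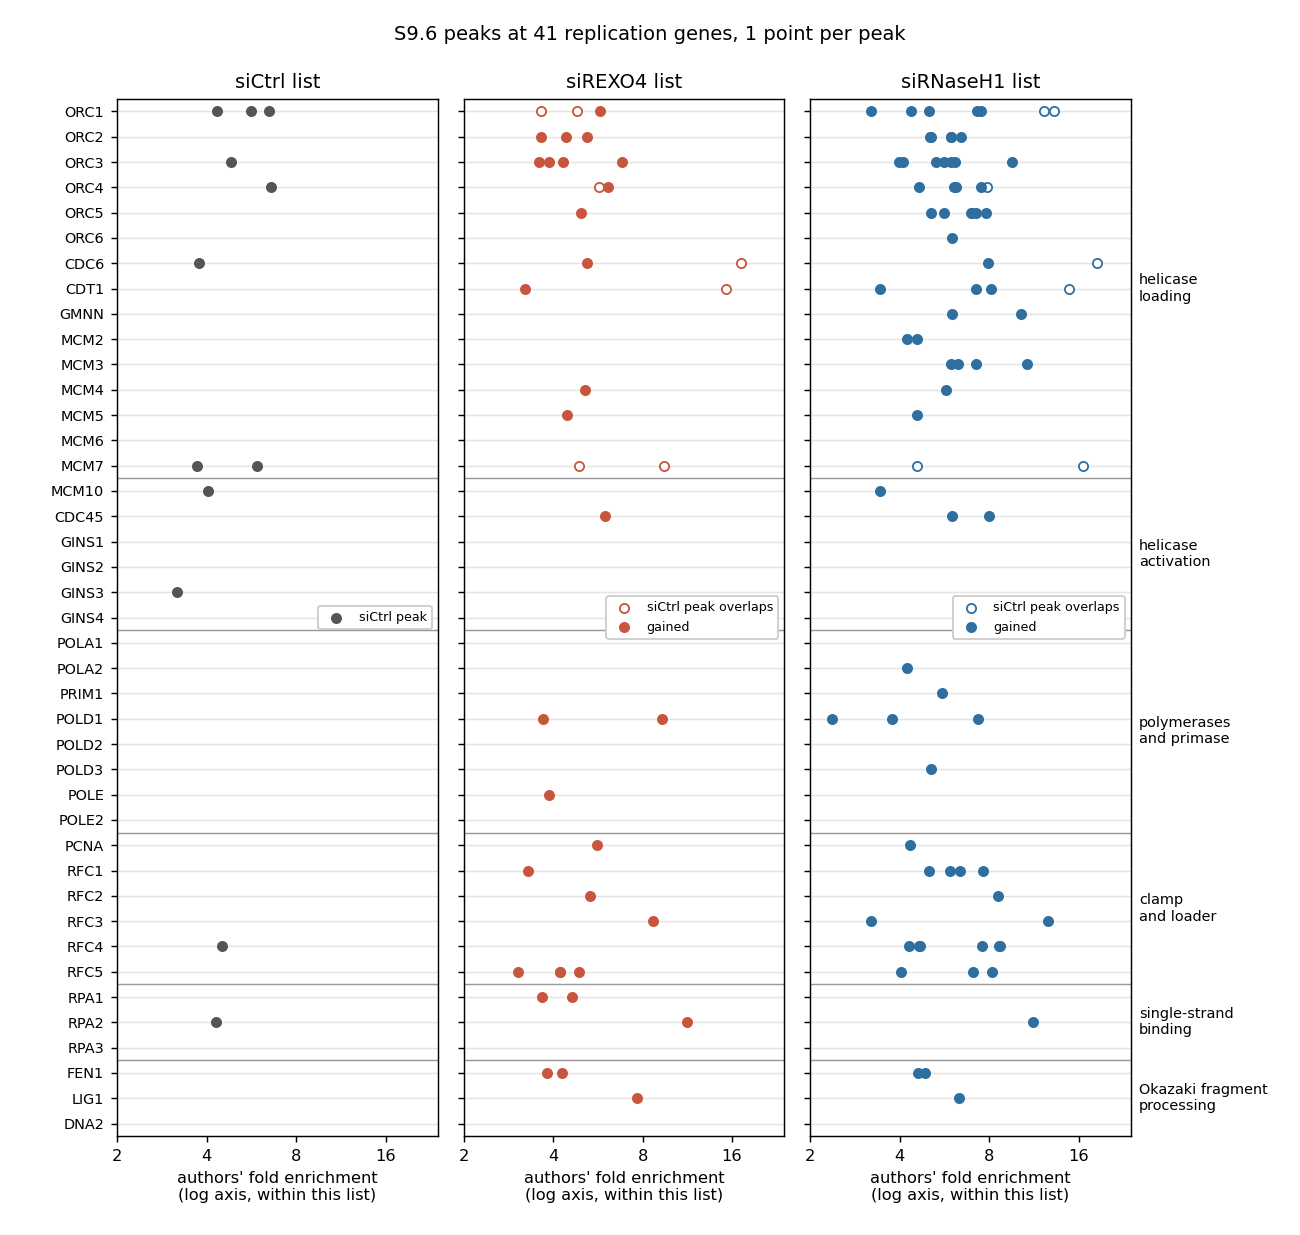
Each point is 1 peak at a replication gene, with the authors' fold enrichment on a log x axis and the genes in rows grouped by role. Open points in the knockdown panels are peaks that a siCtrl peak overlaps. The siCtrl peaks lie between 3.18 and 6.59, and CDC6 is farthest right in both knockdown lists.

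The peaks at these genes numbered 12 in siCtrl, 39 in siREXO4 and 79 in siRNaseH1, which is 0.269%, 0.307% and 0.377% of the lists. Their median fold was 4.42, 4.89 and 6.02, against 4.83, 4.98 and 5.11 over the whole lists. The siCtrl peaks were narrow, with a median width of 325.5 bp, and the knockdown peaks had medians of 443 and 419 bp and reached 1833 and 1676 bp. Over the whole lists the median widths were 336, 383 and 394 bp, in the same direction. The number of fragments at a summit, recovered from the fold and p-value, was 10 to 18 in siCtrl, 8 to 104 in siREXO4 and 10 to 96 in siRNaseH1. Fragment numbers below carry exact 95% Poisson intervals, which cover counting error alone, and they are not scaled for library depth, which is unknown. Of the siREXO4 peaks 28 of 39 (71.8%) overlapped a siRNaseH1 peak, against 54.2% over the whole list. In the other direction it was 29 of 79 (36.7%), against 32.7%. Of the 12 siCtrl peaks, 6 were overlapped by a peak in both knockdown lists and 5 in neither, and over the whole siCtrl list these shares were 33.7% and 45.8%.

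The ORC, whose 6 subunits mark origins, had the most peaks. It held 5 peaks at 3 genes in siCtrl, 13 at 5 genes in siREXO4 and 31 at all 6 genes in siRNaseH1. Any peak lay at 12.0%, 33.7% and 39.2% of protein-coding genes in these lists. At least 5 siRNaseH1 peaks were found at ORC1, ORC2, ORC3, ORC4 and ORC5 and, outside the complex, at RFC4. That makes 6 of 41 replication genes, against 5.52% of protein-coding genes. No replication gene held that many in siCtrl or siREXO4, where 0.11% and 1.22% of protein-coding genes did. The 5 ORC genes span 36.7 to 91.2 kb, and among all genes of 30 to 100 kb the share with that many siRNaseH1 peaks was 8.35%.

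ORC1, the largest subunit, lies on chromosome 1 from 52372829 to 52409503 and shares its outer part with PRPF38A, a splicing factor gene that runs the other way. Its annotated start in the promoter table is at 52404423. The siCtrl list had 3 peaks, with folds of 4.35, 5.65 and 6.51, of which those of 4.35 and 6.51 lay inside PRPF38A. At the same loci the siREXO4 peaks had folds of 3.63 and 4.83 (ranks 11508 and 6681 of 12687). The siRNaseH1 peaks there had folds of 12.2 and 13.2 (ranks 1184 and 986 of 20954), from 52405962 to 52406460 and from 52407555 to 52408432. A gained siREXO4 peak of 5.74 lay between these loci. The siRNaseH1 summits held 31 fragments (21.1 to 44.0) and 39 fragments (27.7 to 53.3). Only 1 of the 7 siRNaseH1 peaks, with a fold of 4.36, lay at the ORC1 start itself, and 4 overlapped PRPF38A, so signal of the pair cannot be told apart.

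At ORC2 (chromosome 2, 200908977 to 200963660) the start held a siREXO4 peak of 5.22 and a siRNaseH1 peak of 5.94, with summits 56 and 54 bp before the start. The siRNaseH1 list had 4 further peaks there, 2 in the gene body and 2 beyond the gene end, with folds of 5.07 to 6.44. The outermost, 1873 bp beyond the end, overlapped a siREXO4 peak of 3.63, and a siREXO4 peak of 4.42 in the body stood alone. ORC3 (chromosome 6, 87590135 to 87677823) showed another layout. None of its peaks lay near the start, and all 7 siRNaseH1 peaks had summits 50831 bp or farther into the span. The highest, of 9.56, lay 78803 bp from the start and overlapped a siREXO4 peak of 6.83. Near the ORC3 end, siREXO4 peaks of 3.59 and 3.89 and siRNaseH1 peaks of 5.29 and 5.95 overlapped AKIRIN2, which runs the other way. The signal of that pair cannot be told apart there. The siCtrl peak of ORC3, of 4.83, was overlapped by neither knockdown.

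ORC4 (chromosome 2, 147930396 to 148021551) held signal at both ends of its span. A locus near the gene end had a fold of 6.59 in siCtrl, 5.69 in siREXO4 and 7.84 in siRNaseH1. At an inner start a locus, within 2 kb of MBD5, was gained in both, with folds of 6.13 and 7.54. ORC5 (chromosome 7, 104126341 to 104208013) had 1 siREXO4 peak of 4.98 and 6 siRNaseH1 peaks of 5.09 to 7.8. The siREXO4 peak and a siRNaseH1 peak of 7.21 shared a locus, with summits 59200 and 59183 bp into the gene. The ORC5 start carried a siRNaseH1 peak alone, of 7.8. ORC6, the smallest subunit, had 1 siRNaseH1 peak of 5.98 inside the gene.

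**Figure D3:**
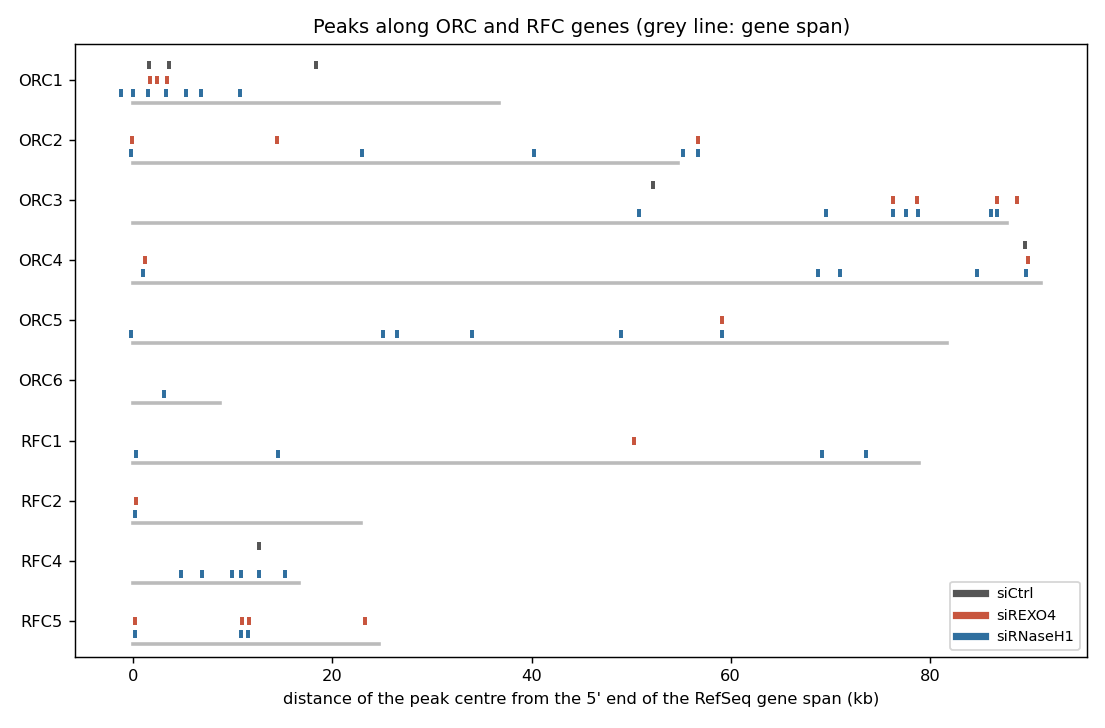
Ticks mark peak centres in kb from the 5′ end of the RefSeq span of 6 ORC and 4 RFC genes, with the span as a grey line and the lists in grey, red and blue. The ORC3 peaks lie in the far part of the span, and the siRNaseH1 ticks outnumber the siREXO4 ticks at ORC1, ORC2, ORC3, ORC4 and ORC5.

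CDC6, the ATPase that joins ORC to load the helicase, had the highest fold of all 41 genes in both knockdown lists. The gene lies on chromosome 17 from 40287879 to 40304657. Its start held a siCtrl peak of 3.77 (rank 4045 of 4458), from 40287975 to 40288949. The siREXO4 peak there had a fold of 17.2 (rank 405), from 40287566 to 40288966, and the siRNaseH1 peak 18.5 (rank 511), from 40287441 to 40289035. The summits lay 151, 145 and 129 bp into the gene and held 15 fragments (8.4 to 24.7), 47 (34.5 to 62.5) and 84 (67.0 to 104). The local background at these summits, which enters the fold, was 3.25, 1.79 and 3.59 fragments, and the genome-wide background of the lists was 1.28, 1.41 and 1.36. Both knockdown peaks covered all 300 promoter bases printed above, and the siCtrl peak began after them. A second locus in the gene body, with summits 4995 and 4864 bp from the start, was gained in both, with folds of 5.22 and 7.92.

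CDT1, which brings the helicase to ORC, lies on chromosome 16 from 88803789 to 88809258. Its start held gained peaks of 3.21 in siREXO4 and 7.21 in siRNaseH1, with 21 (13.0 to 32.1) and 36 (25.2 to 49.8) fragments. A wider and stronger peak lay at the edge of the window, from 88811212 to 88812979 in siREXO4 (15.3) and from 88811236 to 88812911 in siRNaseH1 (14.8). It starts 1954 and 1978 bp beyond the CDT1 end and overlaps APRT, the adenine phosphoribosyltransferase gene. A siCtrl peak of 4.54 lay 2349 bp beyond the CDT1 end, just outside the window, so CDT1 is not counted in siCtrl although both knockdown peaks overlap that peak. The siRNaseH1 list also had a peak of 8.09 at the CDT1 end. GMNN, which encodes the CDT1 inhibitor geminin (chromosome 6, 24774937 to 24786099), had no peak at its start. It held siRNaseH1 peaks alone, of 6.02 in the body and 10.2 (rank 1740) just beyond the gene end, from 24786680 to 24787396.

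Of the MCM2 to MCM7 ring genes, 1 held a siCtrl peak, 3 a siREXO4 peak and 5 a siRNaseH1 peak. MCM7 (chromosome 7, 100092728 to 100101397) was the one in all lists, with 2 loci in each. At its starts the folds were 5.92 in siCtrl (rank 776), 9.41 in siREXO4 (rank 1302) and 16.6 in siRNaseH1 (rank 635). The peak ran from 100100261 to 100100843 in siCtrl, from 100100030 to 100101862 in siREXO4 and from 100099947 to 100101483 in siRNaseH1. The summits held 17 (9.9 to 27.2), 47 (34.5 to 62.5) and 83 (66.1 to 103) fragments. The siCtrl peak covered the inner promoter printed above and none of the outermost one, while the siREXO4 peak covered both in full. AP4M1, an adaptor complex gene on the opposite strand, begins under the same peak, so the pair cannot be told apart. The locus in the MCM7 body had folds of 3.73, 4.89 and 4.59. No MCM7 peak overlapped MIR25 or MIR106B, which are among the microRNA genes inside MCM7.

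MCM3 (chromosome 6, 52264015 to 52284742) held 4 siRNaseH1 peaks and none in the other lists. The highest, of 10.7 (rank 1543), lay deep in the gene from 52267055 to 52267902, and the peak at the start had a fold of 5.94. MCM2 had 2 siRNaseH1 peaks in the body, of 4.24 and 4.59. MCM5 had overlapping gained peaks at one end of its span, of 4.44 and 4.57, and MCM4 had a siREXO4 peak of 5.11 and a siRNaseH1 peak of 5.72 at opposite ends. The MCM4 siREXO4 peak lay within 2 kb of PRKDC.

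Of the 6 genes that activate the helicase, 2 held a siCtrl, 1 a siREXO4 and 2 a siRNaseH1 peak. These are 33.3%, 16.7% and 33.3%, against 12.0%, 33.7% and 39.2% of protein-coding genes. CDC45 (chromosome 22, 19479466 to 19520612) had gained peaks just before its outer start, of 5.98 in siREXO4 and 6.02 in siRNaseH1, which both overlap UFD1. A second siRNaseH1 peak of 8.02 had its summit 314 bp after a start. MCM10 had a siCtrl peak of 4.04 in the body, found in neither knockdown, and a siRNaseH1 peak of 3.43 at the start. Of the GINS genes, GINS3 held a siCtrl peak of 3.18, which neither knockdown had, and GINS1, GINS2 and GINS4 held none.

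Among 8 polymerase and primase genes, none held a peak in siCtrl, 2 held one in siREXO4 and 4 in siRNaseH1. The background shares of protein-coding genes were 12.0%, 33.7% and 39.2%. This role thus lay below the background in siCtrl and siREXO4 and above it in siRNaseH1. POLD1, the catalytic subunit of polymerase delta (chromosome 19, 50384323 to 50418018), had the strongest peak of the 8 genes in each knockdown list. Its start held a siREXO4 peak of 9.27 (rank 1331), from 50383456 to 50385114, and a siRNaseH1 peak of 7.34 (rank 3818), from 50383812 to 50385034. The summits lay 17 and 10 bp before the start and held 30 (20.2 to 42.8) and 41 (29.4 to 55.6) fragments. The siRNaseH1 list had a second peak of 3.78 before the start, overlapping NR1H2, and each knockdown list had a weak peak in the body, of 3.69 in siREXO4 and 2.37 in siRNaseH1. POLE had a siREXO4 peak of 3.89 near its start. POLA2 (4.25), PRIM1 (5.54) and POLD3 (5.09) each had 1 siRNaseH1 peak in the body, and POLA1, POLD2 and POLE2 had none.

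The clamp and its loader were covered throughout in siRNaseH1, where PCNA and all 5 RFC genes held a gained peak. In siREXO4 5 of these 6 did, and in siCtrl only RFC4 held a peak. Among all protein-coding genes, 37.6% held a gained peak in siRNaseH1, 31.3% in siREXO4, and 12.0% a siCtrl peak. RFC3 (chromosome 13, 33818149 to 33977377) had the highest folds, at its start. They were 8.66 in siREXO4 (rank 1526), from 33817964 to 33818755, and 12.6 in siRNaseH1 (rank 1107), from 33817763 to 33819357. The summits held 27 (17.8 to 39.3) and 54 (40.6 to 70.5) fragments. RFC2 and RFC5 also had gained peaks at the start in both lists, of 5.32 and 8.56 at RFC2 and of 4.21 and 8.19 at RFC5. RFC5 held 2 more loci gained in both lists, in its body, with siREXO4 folds of 4.21 and 4.89 and siRNaseH1 folds of 7.06 and 4.05. Their siREXO4 summits lay 10911 and 11553 bp from the start.

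RFC4 (chromosome 3, 186789900 to 186806482) differed from the other RFC genes, since none of its peaks lay at the start. Its 6 siRNaseH1 peaks, of 4.3 to 8.7, lay inside the gene, which spans 16.6 kb. The peak of 8.65 overlapped the siCtrl peak of 4.5. RFC1 had 4 siRNaseH1 peaks of 5.04 to 7.65, the highest at its start, and a siREXO4 peak of 3.29 elsewhere in the gene. The PCNA peaks lay outside the gene. The siREXO4 peak of 5.62 was 595 bp before the start and overlapped CDS2, and the siRNaseH1 peak of 4.34 was beyond the gene end.

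Of the RPA genes, RPA2 (chromosome 1, 27891524 to 27914797) stood out. Its siREXO4 peak of 11.3 (rank 923) ran from 27914008 to 27914707 and its siRNaseH1 peak of 11.2 (rank 1415) from 27913933 to 27914649, at one end of the span. The summits held 39 (27.7 to 53.3) and 48 (35.4 to 63.6) fragments. The siCtrl peak of RPA2, of 4.31, was another locus 1028 bp beyond that end, and neither knockdown peak overlapped it. RPA1 had siREXO4 peaks alone, of 4.64 at the start, shared with SMYD4, and 3.66 beyond its end. RPA3 had none. For Okazaki fragment processing, the ligase gene LIG1 (chromosome 19, 48115445 to 48170344) had gained peaks at its start of 7.65 in siREXO4 and 6.34 in siRNaseH1, the former also overlapping ZSWIM9. FEN1, the flap nuclease gene, had 2 loci in each knockdown list, of 3.82 and 4.27 in siREXO4 and 4.61 and 4.86 in siRNaseH1. All of these overlapped TMEM258, its neighbour on the opposite strand, and the peaks at the FEN1 start also overlapped MIR611.

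The position of the peaks was described for the 34 genes with a start in the promoter table. A peak within 1 kb of a start was found at 2 genes in siCtrl, 15 in siREXO4 and 17 in siRNaseH1. Background shares among protein-coding genes with a start were 3.07%, 21.7% and 22.3%, against 5.88%, 44.1% and 50.0% here. A start peak was in both knockdown lists at 12 genes, in siREXO4 alone at POLE, PCNA and RPA1, and in siRNaseH1 alone at ORC1, ORC5, MCM3, MCM10 and RFC1. For these start patterns the share of all protein-coding genes was not counted. The lists differ in length, so the patterns name the genes and do not set them apart from other genes. Peaks at starts had a median fold of 5.62 in siREXO4 and 7.34 in siRNaseH1, and peaks in gene bodies of 4.62 and 5.62. These medians were not computed over all genes with a start, so the difference is not shown to be particular to replication genes. At these 34 genes, 46 of 75 siRNaseH1 peaks (61.3%) and 14 of 36 siREXO4 peaks (38.9%) lay in gene bodies, close to the 62.5% and 46.3% over all protein-coding genes with a start. Of the siRNaseH1 gained peaks that a siREXO4 gained peak overlapped, 11 of 20 lay at starts (55.0%, against 53.6% over all these genes). Of the siRNaseH1 gained peaks without such an overlap, 36 of 47 lay in bodies (76.6%, against 77.7%). These splits are thus near those of the whole lists.

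**Figure D4:**
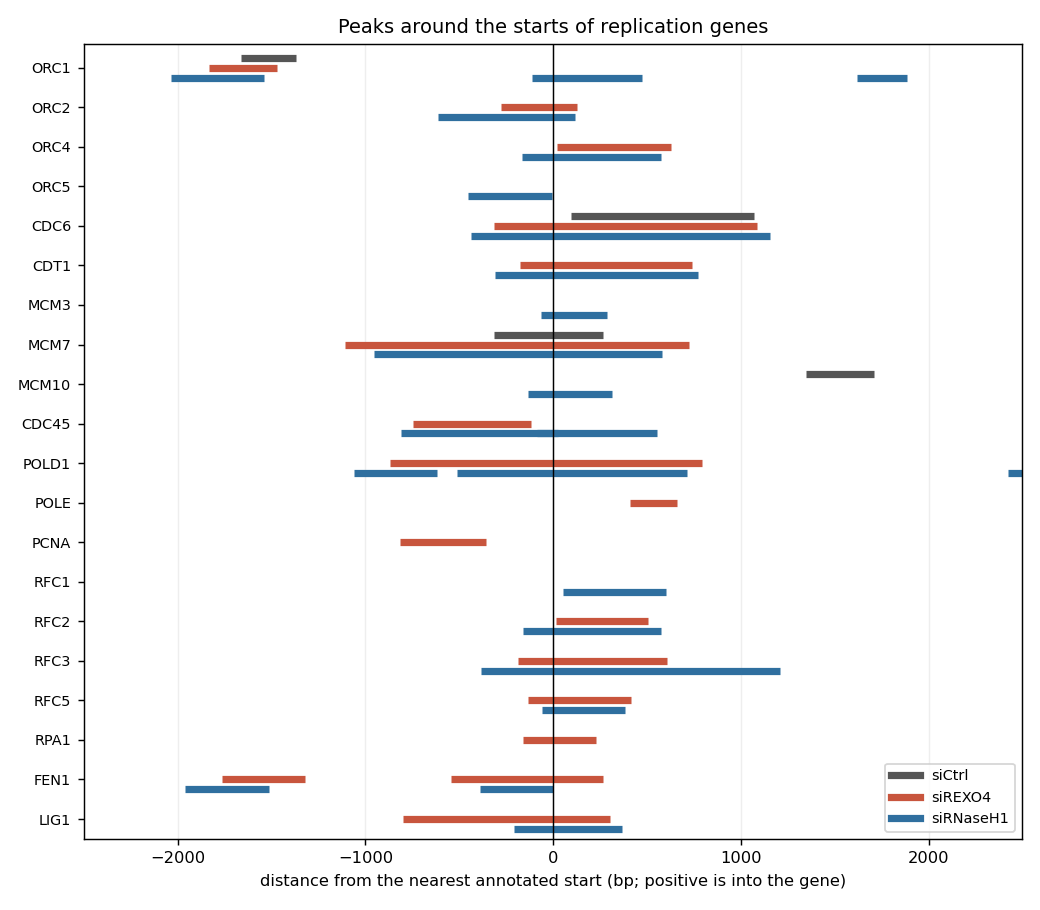
Bars show the extent of each peak in bp from the nearest annotated start, for the 20 replication genes with a start peak, in grey (siCtrl), red (siREXO4) and blue (siRNaseH1). At 12 genes both a siREXO4 and a siRNaseH1 bar lie within 1 kb of a start, and siCtrl bars lie within 1 kb of a start at CDC6 and MCM7.

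Of the 41 genes, 22 have another protein-coding gene in the window, and 16 of the 39 siREXO4 peaks and 13 of the 79 siRNaseH1 peaks overlapped another annotated gene. The matching shares over all protein-coding genes and their peaks were not counted. The median span was 36.7 kb, against 24.2 kb over all protein-coding genes, and the share of all genes with a peak rose with the length class in every list. Among the 14 replication genes of 10 to 30 kb, 4 held a siCtrl, 6 a siREXO4 and 11 a siRNaseH1 peak, against 9.82%, 33.0% and 39.9% of all genes of that length. Among the 20 of 30 to 100 kb it was 4, 12 and 13, against 13.7%, 40.1% and 47.3%. Expression level was not measured here, and its part in the counts was not tested.

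**Figure D5:**
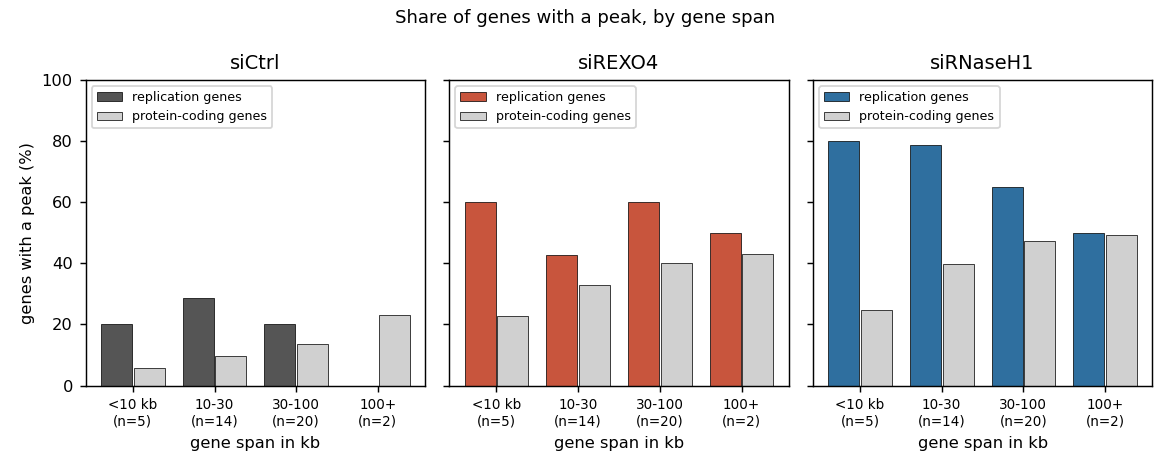
Bars give the percentage of genes with a peak in classes of gene span, for the replication genes (coloured, number under each class) and all protein-coding genes (light grey), in 1 panel per list. In the classes of 10 to 30 and 30 to 100 kb the coloured bars exceed the grey ones in every panel.

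The height of gained peaks was described against the siCtrl calling limit after scaling for background. Among 32 siREXO4 gained peaks 4 reached 2 times that limit, and among 71 siRNaseH1 gained peaks 24 did, with medians of 1.4 and 1.76 times. Over all gained peaks 17.2% and 23.2% did, with medians of 1.41 and 1.55. The 4 siREXO4 peaks were those of RPA2 (3.53 times), POLD1 (3.02), RFC3 (2.72) and LIG1 (2.35), all of them at gene boundaries. The siREXO4 peak at the CDT1 start (1.19 times) and the siRNaseH1 peak at the MCM10 start (1.1 times) lay near the limit, and 2 siREXO4 peaks and 1 siRNaseH1 peak lay under it. The weakest peaks counted were those of GINS3 in siCtrl (−log10 q of 1.51), RFC5 in siREXO4 (1.63) and POLD1 in siRNaseH1 (1.65). At the edge of the gene window, the last peaks inside lay 1954 and 1978 bp from CDT1, and the nearest outside, after the siCtrl peak at CDT1, was a siREXO4 peak of 3.29 at 2369 bp from ORC2. RFC2 had a siCtrl peak of 4.64 at 3373 bp and GINS2 a siREXO4 peak of 4.37 at 4884 bp, which were not counted.

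Other factors of the pathway were counted in the same way. Of 34 genes that fire origins, travel with the fork, complete the polymerases, assemble chromatin or supply nucleotides, 7 held a siCtrl, 20 a siREXO4 and 24 a siRNaseH1 peak. These are 20.6%, 58.8% and 70.6%, against 12.0%, 33.7% and 39.2% of protein-coding genes, the background for each smaller set below too. Of 8 origin-firing genes none had a siCtrl peak, 5 had a siREXO4 peak and 7 had one in siRNaseH1. Examples are MTBP (4.71 in siREXO4 and up to 8.59 in siRNaseH1) and TOPBP1 (4.98 and up to 6.36). Of 12 fork factors 5 held a siCtrl, 8 a siREXO4 and 8 a siRNaseH1 peak. Of 4 chromatin assembly genes none held a siCtrl peak and 2 held one in each knockdown list, and the histone chaperone gene CHAF1A reached 12.2 in siREXO4 and 13.7 in siRNaseH1 at a locus shared with SH3GL1. Of 20 genes typical of other tissues 1 held a siCtrl (5.0%), 4 a siREXO4 (20.0%) and 3 a siRNaseH1 peak (15.0%). Their median span was 8.37 kb, and among all protein-coding genes under 10 kb the shares were 5.89%, 22.8% and 24.6%.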

How the data were processed

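The files hold 1 peak list per transfection on hg38. The submitters' processing notes list MACS2 2.1.0.20150731, HISAT2 2.2.1, SAMtools 1.17, Trim Galore 0.6.10, deepTools 3.5.1 and Cufflinks, without roles or options. Per the labels, IP libraries of a group were merged by the authors before calling. Which control library served each call is not given in the sources used here. Rows follow the narrowPeak layout. The deposited fold is a ratio at the summit over local background. The −log10 p and −log10 q deposited beside it belong to that summit, and the deposited score is about 10 times the −log10 q.

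Peaks on chromosomes 1 to 22 and X were used, 4458 in siCtrl, 12687 in siREXO4 and 20954 in siRNaseH1. Gene spans came from RefSeq GRCh38.p14, which matched all 41 symbols. Start and end mean within 1 kb of an annotated start or of the gene end, for the 34 genes with a strand, and body the rest of the gene. These classes were set after the peaks were seen. Summit fragments were recovered as the whole number that satisfies fold = (n + 1) / (background + 1) and the upper Poisson tail together, within 0.001 in −log10 p for all peaks under 300. Read depth, inputs and IgG were not analysed here.

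The genes and lists were chosen with earlier results of these data known. By rule, values are given for genes with a peak in all 3 lists, with a locus gained in both or among the 8 highest folds of a list, and every other gene is named. Alternatives covered stricter peaks, equal list lengths, other windows and other overlaps. The software comprised Matplotlib 3.10.9, SciPy 1.17.1, pandas 2.3.3, NumPy 2.4.6 and Python 3.11.15. On simulated data, all 200 genes given a shared locus were recovered. The simulated peaks were placed to overlap inside the gene windows, with an empty siCtrl list. This checks the counting code alone and not how well the counts perform on these data.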

Additional observations from a re-analysis of the deposited data

How the results depend on the processing

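Across 9 alternatives, 53 of 63 counts of replication genes stayed within 1.5 times the reported value. Some of these could not move. The overlap settings do not enter the counts of genes holding a peak, and the equal-length cut leaves the siCtrl list whole. The 53 is therefore no measure of stability. With the lists cut to equal length, 4458 peaks each by p-value, the counts were 12 genes for siREXO4 peaks, 15 for siRNaseH1 peaks, 9 and 13 for gained loci and 5 for loci gained in both. The shares of all protein-coding genes then were 18.6% and 16.9% for peaks, 15.6% and 14.2% for gained loci and 8.96% for both. For siCtrl peaks the count was 5 at a −log10 q of at least 3 and 3 at a fold of at least 5, against 9.48% and 5.67% of protein-coding genes. For siCtrl loci found in neither knockdown it was 5 as reported, against 5.34% of protein-coding genes, and 2 at the stricter q, 1 at the stricter fold and 3 within 2 kb of a gene boundary, against 3.84%, 2.14% and 0.706%. No paired analysis was possible because each transfection has 1 merged list, and for the same reason no replicate could be left out. The siCtrl peaks at these genes rest on 10 to 18 fragments at the summit, which limits what the siCtrl counts can show.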

Other observations

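Among the other replication factors, CHTF8, a subunit of an alternative clamp loader, held a peak of 12.2 in siCtrl, 26.2 in siREXO4 and 46.0 in siRNaseH1, from 69131734 to 69133176 on chromosome 16 in siREXO4. DERPC and UTP4 lie at the same peak. TIPIN, a fork protection factor, had folds of 6.62, 6.47 and 12.6 at 1 shared locus.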
